A study of Mus musculus with 6 samples.

Results

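A set of 8 complement genes was followed in the mouse hippocampus after a stroke-like injury: the C1q chain genes C1qa, C1qb and C1qc, the central component gene C3, the anaphylatoxin receptor genes C3ar1 and C5ar1, and the regulator and convertase genes Serping1 and Cfb. They were the rows of the deposited gene table that carry these 8 names, out of 41386 genes in all. The libraries were made from total RNA of the hippocampus of C57BL/6 mice. The ischemia/reperfusion (I/R) group held 3 libraries from mice with a middle cerebral artery occlusion (MCAO) of 1.5 h followed by reperfusion of 24 h, and the sham group held 3 libraries from sham-operated mice. Per the study's methods the animals of both groups were adult C57BL/6J males, 56 days old and wild type by the series' own description, the filament was placed on the left side, the ipsilateral hippocampus was taken, and each library held RNA of 3 pooled hippocampi. The p-values therefore measure the spread between pools.

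Complement is a protein cascade of innate immunity. C1q, a protein built from A, B and C chains, recognises targets and starts the classical pathway. C3 is the point at which the pathways meet, and its cleavage yields an opsonin and the peptide C3a. C3a and C5a act through the receptors encoded by C3ar1 and C5ar1, while Serping1 encodes the C1 inhibitor and Cfb encodes factor B of the alternative pathway. In the healthy brain C1q is made mainly by microglia, the resident macrophages, and complement is known for tagging synapses that microglia then remove.

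The depth was 37527226 to 39553637 counted reads in the I/R libraries and 37493042 to 44788547 in the sham libraries. A level of 3 counts, the smallest number read here as above 0, equalled 0.0659 to 0.0872 CPM, the reads of a gene relative to all reads of the library, scaled by edgeR's TMM method. Markers of hippocampal neurons were present in every library, with summed levels of 1360 to 1420 CPM in sham and 331 to 819 CPM in I/R. Choroid plexus markers did not follow the groups: their sum was 44.1 CPM in I/R library 3 and in sham library 1 and 1620 to 4510 CPM in the other 4 libraries. I/R library 1 stood apart within its group, with the lowest sum of the neuron list (2630 CPM against 4630 and 4990) and the highest sum of the neutrophil list (44.0 CPM against 13.2 and 12.6).

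Of the 8 genes, 7 had enough reads to be tested, and all 7 rose in I/R (edgeR quasi-likelihood test, called at a fold change over 1.2 with an adjusted p below 0.05). Of the 18569 genes tested in all, 21.8% were called higher by the same rule and 19.9% lower. In all 7 genes the lowest I/R library lay above the highest sham library, which held for 29.3% of all genes tested. The median log2 fold change of the 7 was 1.75, against 0.03 over all genes tested. The fitted rises were about 17-fold for both anaphylatoxin receptors, about 11-fold for C3, and 2.54-fold to 3.37-fold for the C1q chains and Serping1. Differences in size between C3 and the receptors were not tested, and their standard errors below are wide against them. In bulk tissue, more cells of a type and more RNA per cell cannot be told apart.

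**Figure D1:**
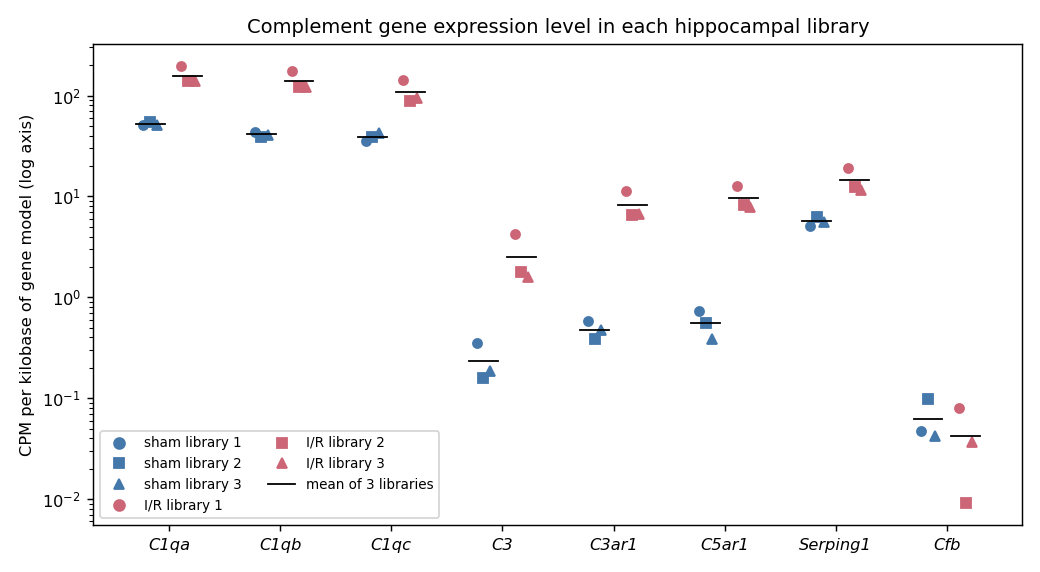
Expression level of the 8 complement genes in each library, as CPM per kilobase of the gene model on a log axis, with sham in blue, I/R in red, 1 symbol per library and a line at the mean of 3 libraries. In the 7 tested genes every I/R point lies above every sham point and I/R library 1 is the highest, while the Cfb points lie below 0.1 and overlap.

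The C1q chain genes were the most abundant of the 8 in both groups. They lie side by side on chromosome 4 of the BALB/cJ assembly that the deposited identifiers refer to, all on the minus strand: C1qb (MGP_BALBcJ_G0028956) at 134198295 to 134208836, C1qc (MGP_BALBcJ_G0028957) at 134212259 to 134215529 and C1qa (MGP_BALBcJ_G0028958) at 134218373 to 134221259. C1qa, which encodes the A chain, had 53.1, 56.8 and 53.1 CPM in the sham libraries and 205, 143 and 144 CPM in the I/R libraries. The sham libraries were close together and the I/R libraries were all higher, with the first of them above the other 2. The rise was 1.59 on the log2 scale (SE 0.15, adjusted p = 0.000423), or 3.01-fold.

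C1qb, the B chain gene, had 47.4, 42.3 and 44.7 CPM in sham and 190, 132 and 131 CPM in I/R. Its pattern was that of C1qa, with I/R libraries 2 and 3 nearly equal and well above every sham library. The rise was 1.75 on the log2 scale (SE 0.15, adjusted p = 0.000363). C1qc, the C chain gene, had 42.7, 46.2 and 51.6 CPM in sham and 171, 105 and 114 CPM in I/R. No I/R library reached down into the sham range, and the rise was 1.48 on the log2 scale (SE 0.19, adjusted p = 0.00106). The chains assemble into 1 protein, so their balance was also compared within libraries, a comparison added after their values were seen. The ratio of C1qb to C1qa was 0.745 to 0.892 in sham and 0.913 to 0.927 in I/R, a difference of 0.16 on the log2 scale (exact two-sided permutation test, n = 3 per group, p = 0.1, the smallest this design allows, 0.133 after adjustment over 8 ratios). The ratio of C1qc to C1qa overlapped between the groups, at 0.804 to 0.971 in sham and 0.735 to 0.838 in I/R (exact permutation p = 0.4, adjusted 0.457).

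Levels can be set between genes only per length, and on that scale the order in sham was C1qa at 52.3 ± 2.04 CPM per kilobase (SD, n = 3), C1qb at 41.2 ± 2.34, C1qc at 38.9 ± 3.71, Serping1 at 5.67 ± 0.580, C5ar1 at 0.563 ± 0.174, C3ar1 at 0.480 ± 0.10, C3 at 0.231 ± 0.103 and Cfb at 0.0627 ± 0.0314. The neighbours C1qb and C1qc, and C5ar1 and C3ar1, did not differ beyond their spread. In I/R the order was unchanged, at 158 ± 34.0 CPM per kilobase for C1qa, 139 ± 30.9 for C1qb, 108 ± 29.9 for C1qc, 14.4 ± 4.19 for Serping1, 9.61 ± 2.75 for C5ar1, 8.19 ± 2.67 for C3ar1, 2.52 ± 1.46 for C3 and 0.0420 ± 0.0359 for Cfb. There the C1q chains overlapped one another, as did C5ar1 and C3ar1. C1qa was nevertheless the highest of the 8 in each of the 6 libraries. The order in both groups rests on the listed gene lengths. The FPKM values deposited beside the counts, which are levels per length, imply other lengths for some genes. For C3 they imply 1667 bases against 5136 listed, and for C1qc 1074 against 1203. The places of C3 relative to the receptors and of C1qc relative to C1qb therefore depend on the length used.

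The rise of C1q was set against the microglia marker list, because microglia are its main source in the healthy brain. Of the 12 markers, 4 were called higher and 4 lower in I/R, beside 21.8% higher and 19.9% lower over all genes tested. The median log2 fold change of the markers was 0.07. The lower ones were genes of homeostatic microglia, namely Siglech (log2 fold change -1.91, adjusted p = 0.000435), P2ry12 (-1.67, 0.00209), Gpr34 (-0.92, 0.0213) and Tmem119 (-0.68, 0.00480). The higher ones included Fcrls (2.22, 0.000662), Aif1 (0.76, 0.0150) and Cx3cr1 (0.48, 0.0489). Csf1r, the receptor for colony-stimulating factor 1 on microglia and macrophages, was not called, with 71.8 to 85.3 CPM in sham and 81.7 to 112 CPM in I/R (0.23, 0.198). Summed over its chains, C1q had 1.99, 1.70 and 1.85 times the CPM of Csf1r in the sham libraries and 5.04, 4.65 and 4.52 times in the I/R libraries. All 3 I/R ratios were far above the sham ratios, by 2.57-fold on average (exact two-sided permutation test, n = 3 per group, p = 0.1, adjusted 0.133). Against the geometric mean of the whole microglia list the ratio was 7.28, 6.76 and 7.10 in sham and 28.6, 22.9 and 18.3 in I/R, 3.25-fold higher, with the same exact p. Such ratios do not depend on how a library is scaled.

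**Figure D2:**
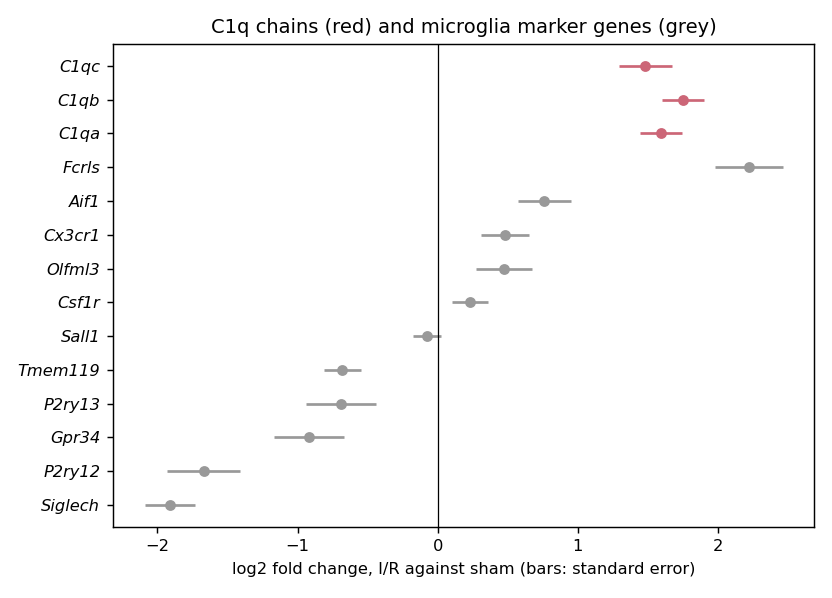
Log2 fold change of the C1q chain genes (red) and of microglia markers (grey), I/R against sham, with the standard error as bars. The chains lie between 1.48 and 1.75, while the markers spread from -1.91 (Siglech) to 2.22 (Fcrls), the only marker above the chains.

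Markers of other macrophages and of blood-borne cells were higher in I/R as well. The counts below stand beside 21.8% of all genes tested that were called higher. On the list for monocytes and border macrophages 9 of the 10 tested genes rose, with summed levels of 104 to 115 CPM in sham and 197 to 358 CPM in I/R. On the neutrophil list 4 of 7 tested genes rose, with sums of 5.90 to 7.33 CPM in sham and 12.6 to 44.0 CPM in I/R. Ly6g, a defining neutrophil marker, had 1 count in all 6 libraries together. All 7 endothelial markers rose too, from sums of 226 to 240 CPM to sums of 398 to 669 CPM. Monocytes, macrophages and neutrophils are also known to express complement receptors, and the part of these cells in the rises was not tested.

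C3 (MGP_BALBcJ_G0023918, chromosome 17, minus strand, 57172948 to 57197061) was barely expressed in sham and clearly measurable in I/R. It had 70, 33 and 33 counts in the sham libraries, or 1.79, 0.812 and 0.959 CPM. In the I/R libraries it had 981, 366 and 324 counts, or 21.6, 9.16 and 8.10 CPM. The groups were well separated, but I/R library 1 held 2.50 times the mean of the other 2 I/R libraries, the widest gap among the 7 genes. The rise was 3.44 on the log2 scale (SE 0.47, adjusted p = 0.00146), or 10.9-fold. Without I/R library 1 it was 2.85 (SE 0.29, adjusted p = 3.09e-06).

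The anaphylatoxin receptors had the highest fitted fold changes of the 7 genes. C3ar1 (MGP_BALBcJ_G0031213, chromosome 6, minus strand, 120909476 to 120918504), the receptor for C3a, had 2.51, 1.65 and 2.04 CPM in sham and 48.5, 28.2 and 29.1 CPM in I/R. C5ar1 (MGP_BALBcJ_G0031683, chromosome 7, minus strand, 13808273 to 13820954), the receptor for C5a that recruits and activates myeloid cells, had 1.87, 1.43 and 0.988 CPM in sham and 32.4, 21.0 and 19.7 CPM in I/R. For both genes even the lowest I/R library was more than 10 times the highest sham library, at 11.2 times for C3ar1 and 10.6 times for C5ar1. The rises were 4.09 (SE 0.27, adjusted p = 0.000216) and 4.08 (SE 0.29, adjusted p = 0.000226) on the log2 scale. They ranked 195 and 196 of the 18569 genes by log2 fold change. The ratio of C3ar1 to C5ar1, also added after the values were seen, was 1.16 to 2.06 in sham and 1.34 to 1.50 in I/R, a difference of -0.04 on the log2 scale (exact permutation p = 0.9).

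Relative to C1q, both receptors were higher in I/R. The ratio of C3ar1 to the summed C1q chains was 0.0175, 0.0113 and 0.0136 in sham and 0.0857, 0.0741 and 0.0748 in I/R, 5.60-fold higher. For C5ar1 it was 0.0131, 0.00982 and 0.00662 in sham and 0.0573, 0.0553 and 0.0508 in I/R, 5.75-fold higher. Neither ratio overlapped between the groups, and each reached an exact two-sided permutation p = 0.1 (n = 3 per group, adjusted 0.133), the smallest possible. In these ratios I/R library 1 lay close to the other I/R libraries, unlike in the levels themselves.

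Serping1 (MGP_BALBcJ_G0025881, chromosome 2, minus strand, 82284257 to 82294274) encodes the C1 inhibitor, which blocks the proteases bound to C1q. It had 9.09, 11.1 and 9.85 CPM in sham and 34.0, 22.0 and 20.4 CPM in I/R. Every I/R library exceeded every sham library, and the rise of 1.35 on the log2 scale (SE 0.20, adjusted p = 0.00206), or 2.54-fold, was the smallest of the 7. The ratio of C3 to Serping1 was 0.197, 0.0730 and 0.0973 in sham and 0.634, 0.416 and 0.397 in I/R, 4.21-fold higher without overlap (exact two-sided permutation p = 0.1, n = 3 per group, adjusted 0.133).

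**Figure D3:**
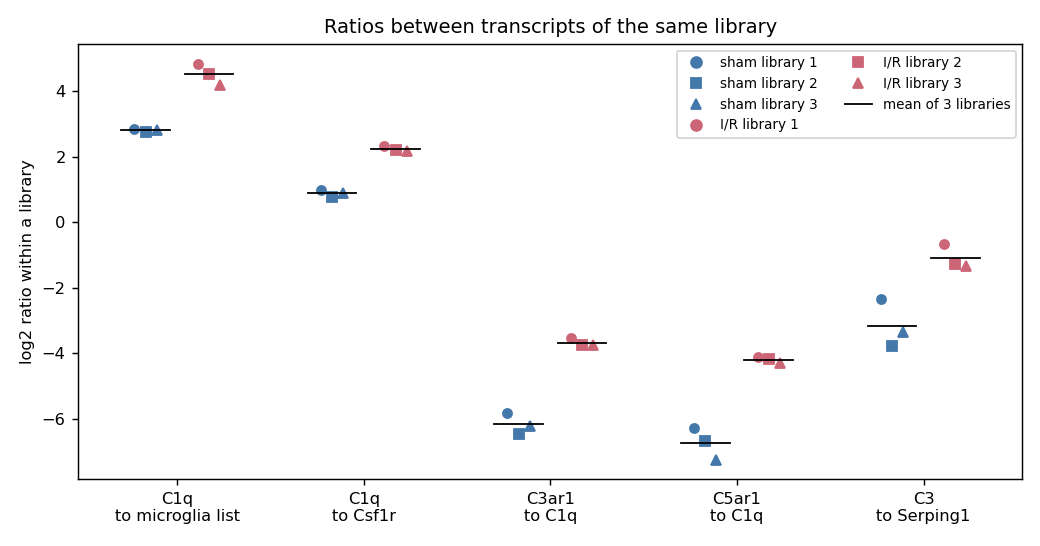
Log2 ratios within each library of the C1q chains to the microglia list and to Csf1r, of C3ar1 and C5ar1 to C1q, and of C3 to Serping1, with sham in blue, I/R in red and a line at the mean of 3 libraries. The I/R points lie above the sham points in all 5 ratios, by 1.36 (C1q to Csf1r) to 2.52 (C5ar1 to C1q) on average.

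Cfb (MGP_BALBcJ_G0023560, chromosome 17, minus strand, 33956894 to 33963033) was below the count filter. It had 5, 11 and 4 counts in sham and 10, 1 and 4 counts in I/R, and the groups overlapped. With no count filter it was not called (log2 fold change -0.59, SE 0.96, edgeR adjusted p = 0.684). Its level is uncertain, because another gene model on the same strand, Gm20547 (33956932 to 33982663), runs over Cfb and its neighbour C2. In the GENCODE M21 annotation of the reference mouse genome, the exons of Gm20547 hold 79.5% of the exonic bases of Cfb and 42.8% of those of C2. Gm20547 had 0 counts in all 6 libraries. Reads that fall on both models may thus be missing from both counts, and the Cfb values cannot show whether the gene changed.

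**Figure D4:**
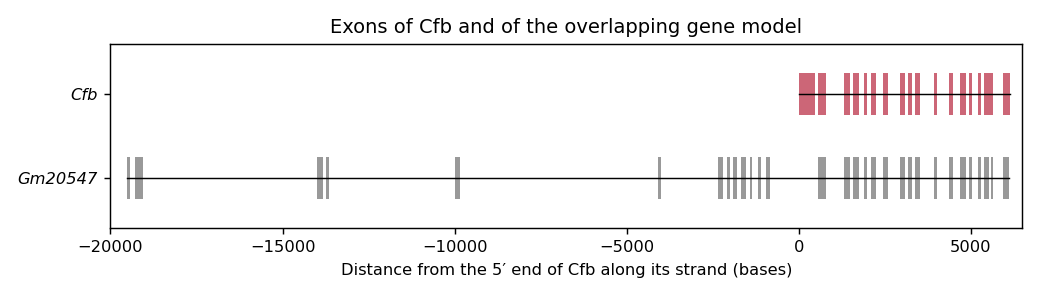
Exons of Cfb (red) and of the overlapping model Gm20547 (grey) in GENCODE M21, by distance in bases from the 5′ end of Cfb along its strand. All exons of Cfb but the first have a counterpart in Gm20547, and together the shared bases are 79.5% of Cfb's exonic bases.

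Of 54 other complement genes listed, 44 were found in the table and 30 passed the filter: 7 were higher, 4 were lower and 19 were not called. Over all genes tested 21.8% were higher and 19.9% lower, so the share of higher genes on the list was near that of all genes. Their median log2 fold change was 0.14. Of the 44, 2 (Itgam and Itgax) were in rows without a gene name and were found through the pathway text of the row, a step chosen after the table was seen. A further 10 listed genes, among them C4a, C4b and Cd55, were not found by name and are not analysed here.

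Among the other receptors 4 of 6 tested genes were called higher, beside 21.8% of all genes tested. Cd93, a transmembrane protein once proposed as a C1q receptor and found on endothelium and myeloid cells, had 378, 365 and 253 counts in sham and 4332, 2554 and 1671 in I/R, a rise of 2.95 on the log2 scale (SE 0.29, adjusted p = 0.000509). Itgb2, Itgam and Itgax encode the chains of complement receptors 3 and 4, which bind cleaved C3 on targets. Itgb2, the shared beta chain, rose by 2.23 (SE 0.21, adjusted p = 0.000464), from 163 to 219 counts in sham to 732 to 1417 in I/R. Itgax, the alpha chain of receptor 4, rose by 3.61 (SE 0.54, adjusted p = 0.00188), from 5 to 6 counts to 42 to 141, and by 3.01 without I/R library 1. Itgam, the alpha chain of receptor 3, rose by 1.70 (SE 0.27, adjusted p = 0.00249), but its row overlaps a second model of the same gene and its count is uncertain. C5ar2, the second C5a receptor, had 29 to 38 counts in sham and 29 to 42 in I/R and was not called (log2 fold change 0.07, SE 0.32, adjusted p = 0.876). Vsig4, a macrophage receptor for C3b that was below the filter, had 8, 10 and 8 counts in I/R and 0 in each sham library, and was called higher with no count filter (edgeR adjusted p = 0.0147).

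The early components beyond C1q were only partly covered: of 17 listed genes of the classical and lectin pathways 12 were found and 8 tested. C1ra, C1rb, C1s2, C4a and C4b were not found by name. Of the 8 tested genes 1 was called higher, beside 21.8% of all genes tested. It was C1s1, a protease of the C1 complex (log2 fold change 1.64, SE 0.50, adjusted p = 0.0318). Its counts were 12 to 24 in sham and 31 to 107 in I/R, and the gene overlaps C1rl on the other strand and has a close copy, C1s2. Without I/R library 1 its log2 fold change was 1.02 (adjusted p = 0.114), and the call was also lost without each sham library (1.49 to 1.90, adjusted p 0.0592 to 0.102) and with limma-voom (0.0611). C2, which shares the overlapping model of Cfb, was not called (-0.36, SE 0.40, adjusted p = 0.511). In the alternative pathway Cfp, encoding properdin, rose by 0.81 (SE 0.22, adjusted p = 0.0194), from 168 to 221 counts in sham to 291 to 532 in I/R. That call was lost without sham library 2 (adjusted p = 0.0782) or 3 (0.0702). None of the 3 tested genes of the terminal pathway was called in the edgeR fit with TMM scaling, and Hc, which encodes C5, came nearest (2.03, SE 0.72, adjusted p = 0.0522). Its call depended on the setting: DESeq2 called it (adjusted p = 0.0189), as did edgeR with scaling by library size alone (0.0350), whereas without I/R library 1, which held 84 counts against 23 and 21, the log2 fold change was 1.19 (adjusted p = 0.178). C7 and C8g, the other 2, had values of 0.73 and -0.42, and at an unadjusted p under 0.05 Hc was the only one of the 3.

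Of the 12 tested regulators other than Serping1, 4 were lower and 1 was higher, beside 19.9% lower and 21.8% higher over all genes tested. The lower ones were Csmd3 (log2 fold change -0.88, SE 0.21, adjusted p = 0.0119), Csmd1 (-0.63, 0.11, 0.00371) and Susd4 (-0.54, 0.12, 0.00983), membrane proteins of which Csmd1 and Susd4 are known to restrain complement, and Vtn (-0.48, 0.11, 0.0120), encoding vitronectin, an inhibitor of the terminal complex. Csmd1, for example, had 3737 to 4342 counts in sham and 2664 to 3090 in I/R. The neuron list fell in the same libraries, with 7 of 8 markers lower and sums of 8300 to 8560 CPM in sham and 2630 to 4990 CPM in I/R, and its part in these values was not tested. Vtn was not called when libraries were scaled by their totals alone (-0.22, adjusted p = 0.140). Cr1l, a regulator on cell membranes, was higher by 0.35 (SE 0.11, adjusted p = 0.0320), a call that was lost without any of the libraries except I/R library 3. Clu, which encodes clusterin and was by far the most abundant gene of the list, had 993 ± 74.3 CPM in sham and 1150 ± 109 CPM in I/R (SD, n = 3) and was not called (0.21, SE 0.14, adjusted p = 0.249).

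**Figure D5:**
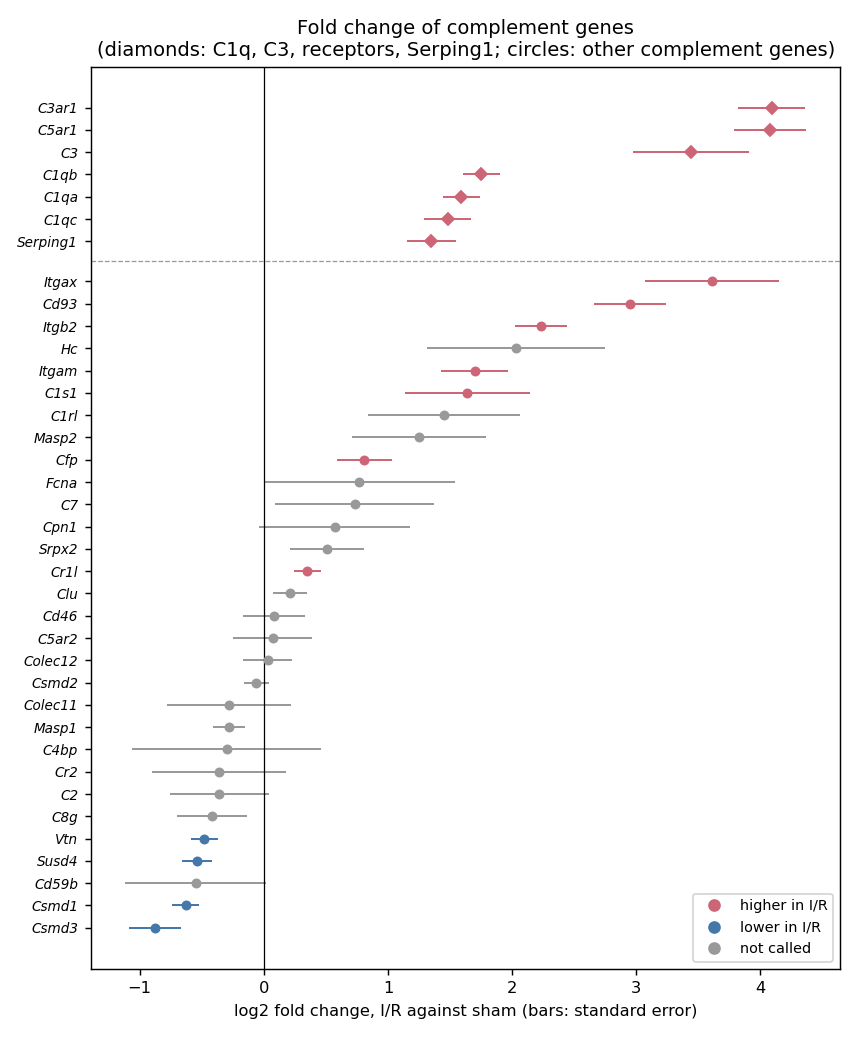
Log2 fold change, I/R against sham, of the 7 tested genes (diamonds, above the dashed line) and of the 30 other tested complement genes (circles), with the standard error as bars, in red where called higher, blue where called lower and grey where not called. The receptors C3ar1 and C5ar1 lie above 4, and the other genes run from -0.88 (Csmd3) to 3.61 (Itgax).

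Because all 7 tested genes were higher in I/R, the sequence around their start sites was read for common transcription factor motifs, from 250 bases before to 50 bases after the start in RefSeq (GRCm38.p6). Of the 8 genes, 5 had an entry. Each of the 4 genes shown carried 1 of the motifs searched on either strand, given in capitals: GAGGAA, the core of the PU.1 motif of myeloid cells, in C1qb (chr4:136886151-136886450, minus strand) and, read on the opposite strand, in C1qc (chr4:136892865-136893164, minus strand), the AP-1 motif TGANTCA in C3ar1 (chr6:122856108-122856407, minus strand), and the interferon regulatory factor motif GAAANNGAA, on the opposite strand, in C5ar1 (chr7:16259289-16259588, minus strand).
C1qb: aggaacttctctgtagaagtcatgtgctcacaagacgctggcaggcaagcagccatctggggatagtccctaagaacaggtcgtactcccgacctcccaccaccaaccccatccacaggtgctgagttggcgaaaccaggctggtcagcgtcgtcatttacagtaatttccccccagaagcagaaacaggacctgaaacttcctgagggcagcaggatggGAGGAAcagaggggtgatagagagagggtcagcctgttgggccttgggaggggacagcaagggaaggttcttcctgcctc
C1qc: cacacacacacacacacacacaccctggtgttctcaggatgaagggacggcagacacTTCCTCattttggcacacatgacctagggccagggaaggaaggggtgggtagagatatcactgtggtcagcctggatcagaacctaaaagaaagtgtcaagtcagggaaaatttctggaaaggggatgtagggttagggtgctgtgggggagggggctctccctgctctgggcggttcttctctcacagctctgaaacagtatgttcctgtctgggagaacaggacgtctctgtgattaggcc
C3ar1: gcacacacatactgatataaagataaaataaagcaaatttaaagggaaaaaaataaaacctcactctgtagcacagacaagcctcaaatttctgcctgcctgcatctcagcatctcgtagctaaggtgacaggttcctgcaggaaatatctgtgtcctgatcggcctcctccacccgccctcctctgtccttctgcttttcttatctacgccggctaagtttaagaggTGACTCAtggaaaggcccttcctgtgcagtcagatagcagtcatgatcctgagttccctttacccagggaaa
C5ar1: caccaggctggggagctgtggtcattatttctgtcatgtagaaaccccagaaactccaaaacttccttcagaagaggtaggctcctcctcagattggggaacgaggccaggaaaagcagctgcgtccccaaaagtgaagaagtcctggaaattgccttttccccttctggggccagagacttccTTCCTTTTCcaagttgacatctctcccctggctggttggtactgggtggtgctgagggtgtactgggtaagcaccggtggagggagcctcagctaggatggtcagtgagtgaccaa
Counted in bases from the start site, the match began at -30 in C1qb, -193 in C1qc, -22 in C3ar1 and -66 in C5ar1. C3 held the C/EBP motif TTGCNNAA at -45. No motif was shared by all 5 genes. None of them held the NF-kappaB motif in the form GGGANTTNC or the STAT motif in the form TTCNNNGAA in this window. Other forms of these motifs were not searched. Of all 32851 promoters of this length, 28.3% held the PU.1 core, 10.8% the C/EBP motif, 8.56% the interferon regulatory factor motif, 8.30% the STAT motif, 7.81% the AP-1 motif and 4.26% the NF-kappaB motif. Such matches describe the letters and do not show binding.

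The genes whose profiles over the 6 libraries lay nearest to those of the complement genes were sought among 14058 named genes, as the root mean square difference of centred log2(CPM + 0.5) values. Nearest to C3ar1 was Osmr, the oncostatin M receptor, at 0.089, followed by Serpina3n, a protease inhibitor of reactive astrocytes, at 0.099 and Cdkn1a at 0.112. Nearest to C5ar1 were Ctla2a and Osmr, both at 0.134, and Bcl3 at 0.158. C3 had no neighbour closer than Lrg1 at 0.194, followed by Sbno2 at 0.199 and Trib3 at 0.203. The C1q chains and Serping1 had nearer neighbours: Gngt2 (0.031), Ampd3 and Ctgf for C1qa, Sat1 (0.053), Irf9 and Cp for C1qb, Gimap5 (0.050), Recql4 and Lbh for C1qc, and Rnh1 (0.054), Asap3 and Gng5 for Serping1. No complement gene was among the 3 nearest of another. The distance is not scaled by the size of a gene's change, so distances cannot be compared between genes with small and large rises. Near profiles could also differ in log2 fold change: Gimap5 had 2.19 against 1.48 for C1qc, and Trib3 4.28 against 3.44 for C3. Rnh1 and Serping1 both had 1.35.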

How the data were processed

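RNA-seq of 3 I/R and 3 sham libraries was used, grouped by the sample titles. The authors aligned reads with TopHat 2 to an Ensembl genome and counted them with HTSeq; the deposited table gives raw counts per gene of the BALB/cJ annotation. The submitters' processing notes also name Bowtie 0.12.2 and mm8, which these identifiers do not match. Whether counting used strand is not given in the sources used here. The deposited table also gives FPKM, whose gene length differs from the listed length for some genes (among them C3), so levels between genes are CPM per kilobase of listed length. The authors' own p-values and adjusted p-values were not used.

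Counts were fitted over all genes in edgeR 4.0.16 (R 4.3.3; TMM, filterByExpr, robust quasi-likelihood) with Benjamini-Hochberg adjustment, after a test on simulated data. Alternatives used DESeq2 1.42.0 and limma 3.58.1, the latter also on log2(FPKM + 1). Ratios were tested by exact permutation, where 3 against 3 cannot go below p = 0.1. The planned ratio of C3 to Cfb was left out because Cfb was near the floor of 3 counts. The named genes were the 8 members, every called gene of the complement list, and the 3 nearest profiles per member among genes with a mean of at least 1 CPM. The members, lists and tests were chosen with earlier results of these data known. Same-numbered libraries were not paired. The values of some listed genes are not reported here.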

Additional observations from a re-analysis of the deposited data

How the results depend on the processing

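The 7 complement genes were called higher under every alternative run: other scalings (DESeq2 size factors, upper quartile, library size), DESeq2, limma-voom, limma on log2(FPKM + 1), no count filter or at least 10 counts in every library, a choroid plexus covariate, a fold over 2, an unadjusted p, and leaving out each library. Scaling by library size alone moved the median log2 fold change of all genes from 0.03 to 0.28 and the calls from 4054 higher and 3702 lower to 6334 and 2027. With a fold over 2 the other complement genes called fell from 11 to 5; under the other alternatives 8 to 14 were called. Using Csf1r alone in place of the microglia list gave a C1q log2 ratio difference of 1.36 against 1.70. With limma on log2(FPKM + 1), which compresses low genes, the values were 2.42 for C3, 2.75 for C3ar1 and 2.91 for C5ar1. Among the list genes that passed the filter, 18 values lost their call and 12 gained one over all alternatives, and no called gene changed direction. Of the genes below the filter, Vsig4 was called with no filter (adjusted p 0.0147) and C8b without sham library 3 (0.0448). Hc gained one under 5 of them (adjusted p 0.0189 to 0.0439; 0.0189 to 0.178 over all). Same-numbered libraries did not deviate together (correlations -0.139, 0.043 and -0.236), so the numbers do not pair them; with the replicate number as a block 7 of the 7 genes and 10 genes of the list were called (C1s1 had an adjusted p of 0.0544), and I/R library 3 correlated best with sham library 1 (0.33). Genes with few counts, such as Cfb and Vsig4, are limited by depth.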

Other observations

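The terminal component gene C8b was below the count filter of the fit over all 6 libraries, with 2, 0 and 5 counts in sham and 15, 9 and 18 counts in I/R. With no count filter its log2 fold change was 2.32 (edgeR adjusted p = 0.0976), and it was called only without sham library 3 (3.57, adjusted p = 0.0448), among the 5 alternatives in which it could be fitted. C6, C8a and C9, which take part in the same membrane pore, had at most 9 counts in any library.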
